A study of Mus musculus with 18 samples.

Results

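Matricellular proteins are secreted into the extracellular matrix, where they signal to cells rather than bear load. The 10 genes described here encode the 5 thrombospondins (Thbs1, Thbs2, Thbs3, Thbs4 and Comp, which is also called thrombospondin 5), tenascin C (Tnc), periostin (Postn), SPARC (Sparc), osteopontin (Spp1) and cartilage intermediate layer protein (Cilp). They were chosen by name as a family, with earlier results of these data known, from the 55453 gene symbols of the count table. All 10 passed the filter on low counts that left 16170 symbols for testing.

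Bulk RNA was sequenced from GFP+ cells of C57BL/6J mouse pups, sorted from the apical side of the ventricles once atria and valves were removed. All pups carried 1 Tcf21-MerCreMer and 1 Rosa-mTmG allele and received 4-hydroxytamoxifen once at P1, so that cells with Tcf21 promoter activity at that age, and their descendants, turned from tdTomato to membrane GFP. The 18 libraries formed 6 groups of 3. Un-manipulated pups were collected at P2 (P2 baseline) or P10 (P10 baseline). Pups operated on at P2, within the regenerative window of the mouse heart, were collected 3 days later at P5 after resection of the apex (P2 resected) or after exposure of the heart alone (P2 sham). Pups operated on at P10, in the non-regenerative window, were collected 3 days later at P13 in the same way (P10 resected and P10 sham). The libraries of a group are numbered 1 to 3, and neither the sex of the pups nor the number of pups behind a library is given. The p-values below measure the spread between libraries, which may be partly technical. Because Cre is driven by Tcf21, the sort holds the labelled lineage and not every fibroblast, and PDGFRA was stained without being stated as a gate. Older hearts were digested for longer, which cannot be told apart from age.

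In the heart, this family is known for its link to remodelling. Tenascin C and periostin are made in the embryo and in injured tissue, osteopontin is made by activated macrophages and by injured mesenchymal cells, and SPARC and thrombospondin 2 affect how collagen fibrils assemble. Many family members bind integrins, and thrombospondins also bind CD47, CD36 and calcium channel subunits and can act on latent TGF-beta.

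Between 10462737 and 22980554 reads per library fell on genes, and levels are given as CPM (counts per megaread of library size, scaled by the TMM method of edgeR). All 8 fibroblast markers (Tcf21, Pdgfra, Col1a1, Col1a2, Dcn, Lum, Dpt and Gsn) had counts in all 18 libraries, and their sum was 25058 to 45263 CPM in P2 libraries and 44822 to 61640 CPM in P10 libraries. By the test used below, 3 of the 8 were higher in the P10 window and 0 were lower. Gsn averaged 2950 CPM in P2 and 11542 CPM in P10 libraries and Dcn 7133 and 13679 CPM, while Tcf21 averaged 292 and 288 CPM. The 10 cardiomyocyte markers summed to 309 to 1452 CPM in P2 and 156 to 809 CPM in P10 libraries, and 6 of them were lower in the P10 window by the test used below. The 13 macrophage markers summed to 7.76 to 471 CPM in P2 and 19.05 to 1145 CPM in P10 libraries, with 2 called higher in P10. In bulk RNA, a smaller share of cells of one type and less RNA per cell cannot be told apart. P2 sham library 1, P10 baseline library 1 and P10 sham library 1 stood apart from the others of their groups in Thbs1, Thbs2 and Postn. They also did so over all genes, where the chi-square per gene was 145 to 304 for pairs with them and 33.0 to 74.9 for the remaining pair of each of these groups. In the sample titles these 3 libraries, and no others, carry the number 3, whose meaning is not given. No P2 baseline or resected library carries it, so whatever it marks could not be compared within those groups. Age differences of these genes are given with and without them. P2 resected library 3 was also the highest of its group in all 3 genes, and was left out only on its own.

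The stretches of 250 bases before the start sites of 5 members are shown, namely the called Tnc, Postn and Cilp and the uncalled Spp1 and Thbs4, whose resected libraries did not overlap sham. Sparc is not, since its RefSeq start lies 3103 bases from the principal GENCODE start. They are RefSeq sequences of GRCm38.p6, 5′ to 3′ on the strand of the gene, and such windows were found for 8 of the 10 members (Thbs1 and Comp had none). Capitals mark matches, on either strand, to letters used for the TATA box (TATAAA), RUNX factors (AACCACA), TEAD factors (CATTCC), the CCAAT box, the GC box of Sp factors (GGGCGG) and AP-1 (TGANTCA).
Spp1, chr5:104434861-104435110, plus strand: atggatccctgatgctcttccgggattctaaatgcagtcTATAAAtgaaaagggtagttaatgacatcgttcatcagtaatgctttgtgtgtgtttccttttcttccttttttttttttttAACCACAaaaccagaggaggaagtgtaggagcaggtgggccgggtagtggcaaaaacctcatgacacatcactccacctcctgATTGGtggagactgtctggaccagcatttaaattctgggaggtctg
Thbs4, chr13:92794819-92795068, minus strand: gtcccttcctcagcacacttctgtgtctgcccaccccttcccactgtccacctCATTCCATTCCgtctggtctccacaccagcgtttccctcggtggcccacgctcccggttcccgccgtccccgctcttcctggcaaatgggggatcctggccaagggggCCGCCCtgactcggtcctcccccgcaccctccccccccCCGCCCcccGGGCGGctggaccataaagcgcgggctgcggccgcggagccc
Tnc, chr4:64047016-64047265, minus strand: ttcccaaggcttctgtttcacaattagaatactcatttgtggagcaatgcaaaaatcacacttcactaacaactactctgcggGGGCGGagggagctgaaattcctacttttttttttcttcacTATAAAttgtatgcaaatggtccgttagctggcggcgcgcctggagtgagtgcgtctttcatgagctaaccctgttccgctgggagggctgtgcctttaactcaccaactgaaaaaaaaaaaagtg
Postn, chr3:54360857-54361106, plus strand: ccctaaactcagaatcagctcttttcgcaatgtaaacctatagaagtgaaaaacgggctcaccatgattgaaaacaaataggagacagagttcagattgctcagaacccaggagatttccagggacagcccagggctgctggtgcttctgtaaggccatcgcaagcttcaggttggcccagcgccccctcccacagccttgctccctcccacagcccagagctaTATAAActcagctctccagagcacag
Cilp, chr9:65264930-65265179, plus strand: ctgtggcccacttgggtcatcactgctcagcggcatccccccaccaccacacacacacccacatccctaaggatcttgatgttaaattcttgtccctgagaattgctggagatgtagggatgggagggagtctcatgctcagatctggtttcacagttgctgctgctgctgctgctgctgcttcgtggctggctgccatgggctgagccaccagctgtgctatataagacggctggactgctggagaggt
Postn held TATAAA 21 to 26 bases before its start, the usual place of a TATA box, whereas Tnc held it at 121 to 126 bases and Spp1 at 206 to 211 bases. TATAAA occurs in 12.4% of the 32851 mouse windows of this length. Spp1 also held AACCACA, found in 4.40% of windows, at 123 to 129 bases before its start and CCAAT, found in 33.8%, on the other strand at 42 to 46 bases. Thbs4 held a pair of CATTCC matches (12.6% of windows) that overlap by 1 base, at 187 to 192 and 192 to 197 bases before its start, and 3 GC boxes (32.7% of windows). The Tnc window held 1 GC box, and the Cilp window held none of these letters. Only exact letters were searched, so a near form such as tatataag, close to the Cilp start, was not marked. No member window held the AP-1 letters, which are in 6.75% of all windows. The GC share of the shown windows was 43.6% for Spp1, 44.8% for Tnc, 52.0% for Postn, 56.0% for Cilp and 70.8% for Thbs4, beside a median of 52.4% over all windows. A match is a description of the sequence, and no binding was measured.

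Levels of different genes were compared per kb of exon, using the exon lengths of GENCODE M21. Sparc was the most abundant member, with a median of 3074 CPM per kb over the 18 libraries (range 2019.8 to 4219), followed by Postn with 946 CPM per kb (range 338 to 1995). Thbs2 had a median of 152 CPM per kb (range 103 to 270.2) and Thbs1 one of 111 CPM per kb (range 42.7 to 475). The ranges of Sparc, Postn and Thbs2 did not overlap, while those of all later neighbours in the order did. Thbs3 followed at 54.1, Tnc at 21.7, Cilp at 20.1 and Thbs4 at 3.15 CPM per kb (medians). Spp1 at 0.837 and Comp at 0.116 CPM per kb had the lowest medians, and both had libraries without a count. The order differed between groups. Spp1 averaged 36.3 ± 34.3 CPM per kb at P2 resected and 70.1 ± 56.5 CPM per kb at P10 resected (SD, n = 3 each), where Thbs4 averaged 13.3 and 16.9 CPM per kb. Tnc averaged 36.4 ± 8.73 CPM per kb at P2 baseline against 3.48 ± 0.631 for Cilp, but 5.89 ± 0.746 CPM per kb at P10 sham against 26.9 ± 12.6 for Cilp (SD, n = 3 each).

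**Figure D1:**
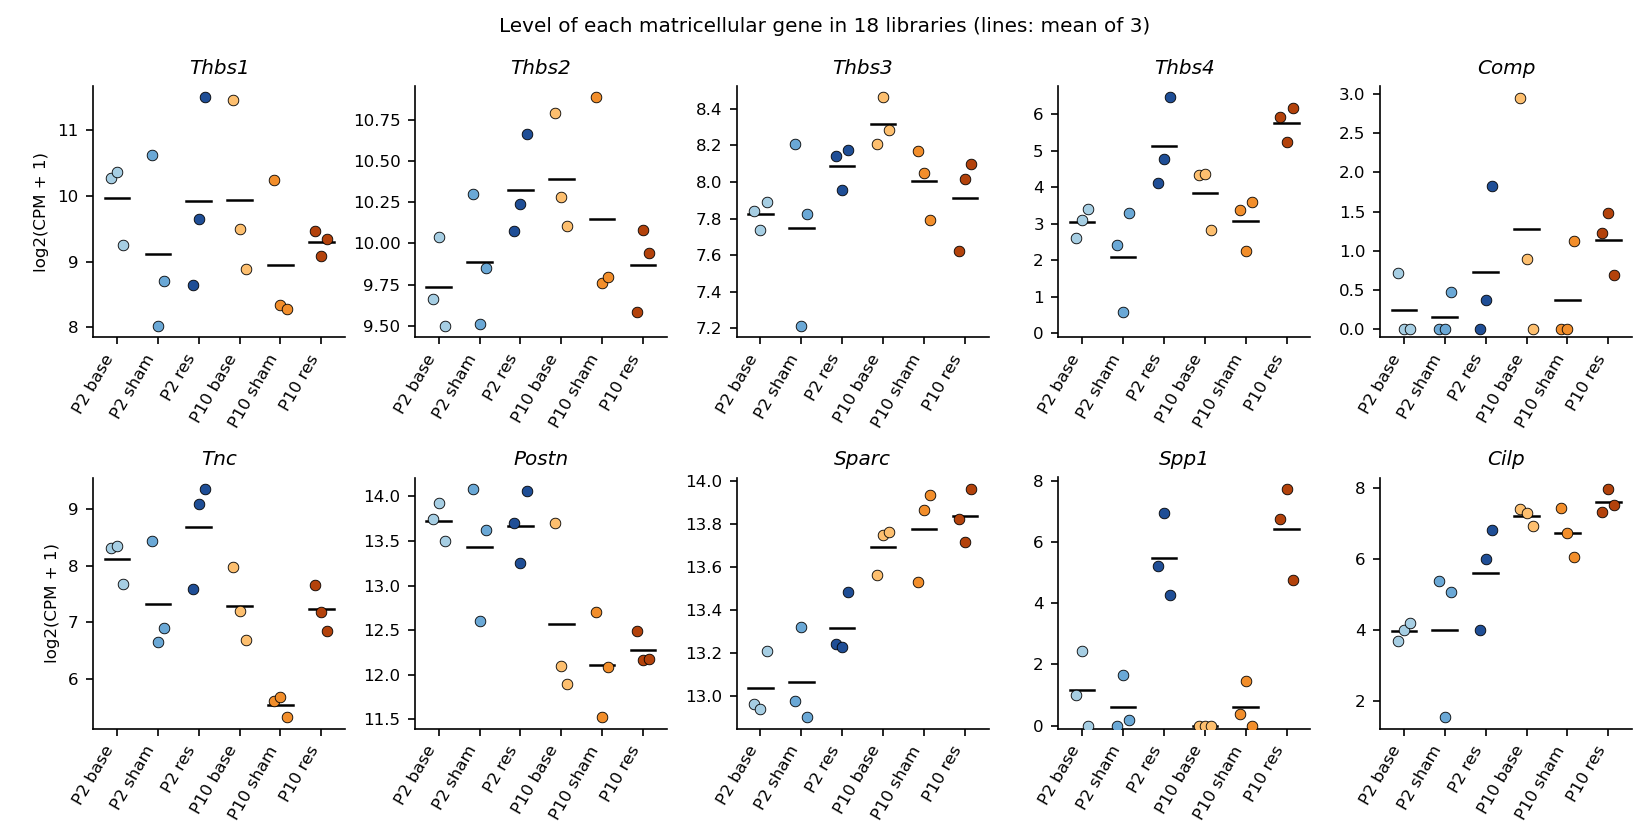
Level of each gene as log2(CPM + 1) in each of the 18 libraries (points, 3 per group) with the mean of each group (lines). Sparc and Cilp sit higher and Postn and Tnc mostly lower in the P10 groups, and Spp1 and Thbs4 sit highest in the resected groups at both ages. Each panel has its own vertical scale.

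The first question was how the family differed between the regenerative and the non-regenerative window, with the mean of the 3 P10 groups set against the mean of the 3 P2 groups. In edgeR's quasi-likelihood test, with p-values adjusted after Benjamini and Hochberg over all 16170 genes, 4 of the 10 members changed, where 13.5% of all genes did. Sparc and Cilp rose (7.11% of genes rose) and Tnc and Postn fell (6.39% fell), while Thbs1, Thbs2, Thbs3, Thbs4, Comp and Spp1 did not pass the test. The median log2 fold change over the 10 members was 0.18, beside -0.06 over all genes tested. This median was the same with Spp1, which had no count in P10 baseline, set at the limit that 3 counts in that group allow. The same 4 calls were made in each fit that left out 1 library.

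Sparc (chr11:55394500-55423183, minus strand) encodes a collagen-binding glycoprotein that assists the processing and deposition of fibrillar collagen. Its level was 7994, 7858 and 9474 CPM in the P2 baseline libraries, 8064, 10223 and 7651 CPM after sham surgery at P2 and 9701, 9592 and 11462 CPM after resection at P2. In the P10 groups it was 12125, 13780.3 and 13929 CPM at baseline, 11827, 14935 and 15656 CPM after sham surgery and 14516, 13477 and 15982 CPM after resection. Every P10 library was above every P2 library, where 2.51% of all genes were without overlap (1.15% higher and 1.36% lower at P10). The mean was 9113 ± 1300.0 CPM (SD, n = 9) in the P2 window and 14025 ± 1431 CPM (SD, n = 9) in the P10 window. This was a 1.54-fold difference (log2 0.63, standard error (SE) 0.10, adjusted p = 0.000333 by edgeR's quasi-likelihood test). Between neighbouring groups in the order of the means, from P2 baseline to P10 resected, the ranges overlapped except between P2 resected and P10 baseline.

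The age difference of Sparc was present in unoperated hearts and after sham surgery. At baseline the log2 fold change was 0.65 (SE 0.17, adjusted p = 0.0377 by the same edgeR test), and after sham surgery it was 0.71 (SE 0.17, adjusted p = 0.0296). In these comparisons 4.38% (2.71% higher) and 3.18% of all genes were called. The baseline call was lost without P10 baseline library 2 or 3 or any of the P2 baseline libraries (log2 0.60 to 0.74, adjusted p at most 0.151). The sham call was lost without P10 sham library 2 or 3 or P2 sham library 1 or 3 (log2 0.63 to 0.67, adjusted p at most 0.116). Both calls were also lost without the filter on low counts and with only the groups compared. After resection the log2 fold change was 0.52 (SE 0.17, adjusted p = 0.242), with the P10 libraries all above the P2 libraries, where 23.3% of all genes did not overlap (10.6% higher at P10).

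Cilp (chr9:65265180-65280605, plus strand) encodes a secreted protein of the cartilage and heart matrix that is known to bind TGF-beta. The study names Cilp from these libraries, so its difference with age here is no independent evidence. In the P2 groups Cilp was at 12.0, 15.1 and 17.4 CPM at baseline, 40.8, 1.94 and 32.5 CPM after sham surgery and 15.1, 62.9 and 113 CPM after resection. In the P10 groups it was at 169, 158 and 122 CPM at baseline, 172, 105 and 65.9 CPM after sham surgery and 160, 252 and 185 CPM after resection. P2 resected library 3 reached into the P10 range, above P10 sham libraries 2 and 3, and the other 8 P2 libraries were all below the lowest P10 library. The window means were 34.5 ± 34.6 CPM and 154 ± 52.8 CPM (SD, n = 9 each), and the log2 fold change was 2.39 (SE 0.43, adjusted p = 0.00101 by edgeR's quasi-likelihood test).

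At baseline alone the P10 mean of Cilp was 150.0 ± 24.8 CPM against 14.8 ± 2.68 CPM at P2 (SD, n = 3 each), at a log2 difference of 3.34 (SE 0.77, adjusted p = 0.0193 by edgeR). This call was lost without P10 baseline library 2 (adjusted p = 0.0565) or without P2 baseline library 1, 2 or 3 (adjusted p of 0.0950, 0.0775 and 0.0620), at log2 fold changes of 3.21 to 3.47. After sham surgery the log2 fold change was 2.19 (SE 0.74, adjusted p = 0.131) and after resection 1.64 (SE 0.72, adjusted p = 0.506). DESeq2 called the sham difference (adjusted p = 0.0313), as did edgeR without the filter. The resected value was 1.18 without P2 resected library 1 and 2.35 without P2 resected library 3. In each of these 3 pairs of groups all P10 libraries were above all P2 libraries, as were those of 10.3%, 9.07% and 10.6% of all genes in baseline, sham and resected hearts (at baseline, 12.1% were lower without overlap).

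Tnc (chr4:63959785-64047015, minus strand) encodes tenascin C, a hexameric protein that loosens the adhesion of cells to fibronectin. Its P2 levels were 318, 326 and 204 CPM at baseline, 343, 99.2 and 118 CPM after sham surgery and 192, 544 and 652 CPM after resection. The P10 levels were 250.5, 146 and 103 CPM at baseline, 48.0, 50.2 and 39.2 CPM after sham surgery and 201, 144 and 115 CPM after resection. The P10 sham libraries were the lowest of the 18, and P2 resected libraries 2 and 3 were the highest. The window means were 311 ± 187 CPM at P2 and 122 ± 72.1 CPM at P10 (SD, n = 9 each). By the fitted contrast, which averages groups on the log2 scale and so differs from the ratio of these means, Tnc was 2.76-fold lower at P10 (log2 -1.46, SE 0.28, adjusted p = 0.00148 by edgeR's quasi-likelihood test). Exons of 8030451A03Rik on the other strand share 2.26% of the exon bases of Tnc, and counting did not use strand.

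Between the sham groups Tnc fell by 2.03 on the log2 scale (SE 0.49, adjusted p = 0.0278 by edgeR), and every P10 sham library was below every P2 sham library, as for 7.61% of genes (1.65% were called lower). The call was lost without P10 sham library 1, 2 or 3 (log2 -2.06, -2.10 and -1.93) or without P2 sham library 1 (log2 -1.25, adjusted p = 0.135), without the 3 libraries that stood apart (log2 -1.28, adjusted p = 0.139), and with limma voom (log2 -1.51, adjusted p = 0.101). A fit of only the groups compared lost it too. At baseline the log2 fold change was -0.77 (SE 0.47, adjusted p = 0.406) and the groups overlapped, while limma voom called it (adjusted p = 0.0420). Between the resected groups it was -1.60 (SE 0.48, adjusted p = 0.166), also with overlap.

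Postn (chr3:54361109-54391037, plus strand) encodes periostin, which binds collagen and integrins and marks fibroblasts of the growing and the injured heart. It was at 13693, 15604 and 11555 CPM at P2 baseline, 17359, 6223 and 12591 CPM at P2 sham and 13330.2, 9764 and 17040.2 CPM at P2 resected. It was at 13334, 4388 and 3819 CPM at P10 baseline, 6695, 2945 and 4350.1 CPM at P10 sham and 5768, 4588 and 4639 CPM at P10 resected. P10 baseline library 1 lay within the P2 range, far above the other P10 baseline libraries, and P2 sham library 2 was below P10 sham library 1. The window means were 13018 ± 3559 CPM at P2 and 5614 ± 3087 CPM at P10 (SD, n = 9 each). By the fitted contrast on the log2 scale, Postn was 2.36-fold lower at P10 (log2 -1.24, SE 0.25, adjusted p = 0.00269 by edgeR's quasi-likelihood test). Without P2 sham, P10 baseline and P10 sham library 1, the log2 fold change was -1.51 (adjusted p = 1.76e-05).

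Within single pairs of groups Postn did not pass edgeR's test, whereas limma voom called it lower at P10 in all 3 pairs and DESeq2 between the sham groups (adjusted p = 0.0422). Without the filter on low counts edgeR also called it in all 3 pairs, and with only the groups compared it did so between the resected groups. The log2 fold change was -0.92 (SE 0.43, adjusted p = 0.261 by edgeR) at baseline, -1.37 (SE 0.44, adjusted p = 0.106) after sham surgery and -1.42 (SE 0.44, adjusted p = 0.185) after resection. Without P10 baseline library 1 the baseline difference was -1.73 and was called (adjusted p = 0.0131). Without the same 3 libraries that stood apart, the sham difference was -1.37 and was called (adjusted p = 0.0285). The resected groups did not overlap, with P10 lower, as for 12.7% of genes.

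**Figure D2:**
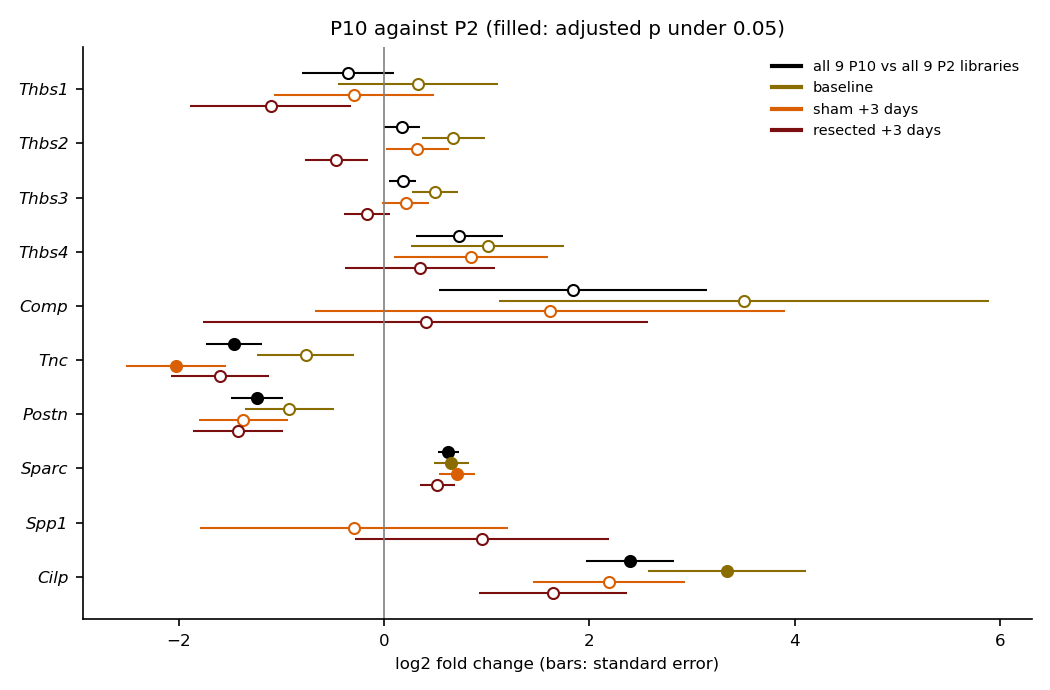
Log2 fold change of each gene in P10 against P2 libraries, for the mean of all groups and within baseline, sham and resected hearts (bars, SE; filled points, adjusted p under 0.05 by edgeR). Sparc and Cilp lie above 0 and Tnc and Postn below 0 in all 4 comparisons, with 8 filled points in all. Spp1 is not drawn for the window and baseline comparisons because no P10 baseline library held a count.

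Among all pairs of single groups, the age comparisons of baseline hearts called 2 members (Sparc and Cilp, where 4.38% of genes were called), those of sham hearts 2 members (Sparc and Tnc, 3.18%) and those of resected hearts 0 members (0.860%). These shares rest on 709, 515 and 139 genes. With 1 library left out, the counts ran from 292 (without P10 baseline library 2) to 1273 (without P10 baseline library 1), from 328 (without P10 sham library 1) to 424 and from 33 (without P2 resected library 2) to 136. At baseline 6 members had an unadjusted p under 0.05 (18.7% of genes), Spp1 among them, which DESeq2 called lower at P10. In resected hearts 4 members had one (8.77% of genes), DESeq2 called 2 (Sparc and Tnc) among 499 of 13742 genes, and limma voom with sample quality weights called 4 (Sparc, Cilp, Tnc and Postn) among 908 of 16170. The median log2 fold change of the members was 0.58 between baseline, 0.27 between sham and 0.09 between resected groups, where the medians of all genes were -0.03, -0.07 and -0.04. The cardiomyocyte and fibroblast marker sums given above moved with age too, as did 7 mural markers (419 to 1191 CPM at P2 and 804 to 1835 CPM at P10, with 3 called higher), and their part in these results was not tested.

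The second question was how the family responded to resection of the apex, with sham surgery of the same age as the control. These comparisons share the sham libraries with the age comparison of sham hearts, so a low P10 sham value enters both. By edgeR's quasi-likelihood test, 0 genes of the whole table were called at either age (0% of 16170). Of the members, 3 had an unadjusted p under 0.05 at each age, namely Spp1, Thbs4 and Tnc, and all 3 were higher after resection. Among all genes, 4.51% passed that unadjusted level at P2 and 4.09% at P10. DESeq2 called 34 genes at P2, 1 of them a member (Thbs4, adjusted p = 0.0123), and 42 genes at P10, with no member among them. Limma voom called 0 genes at either age. Without the filter on low counts, edgeR called Spp1, Thbs4 and Tnc at both ages, among 24 genes at P2 and 76 genes at P10. At P2 the log2 fold changes of all 10 members were above 0, with a median of 1.08 beside 0.00 over all genes. P2 resected library 3 held the highest level of its group in every member except Spp1, where it was the lowest, so these values share that library. At P10, 8 of 10 were above 0, with a median of 0.45 beside 0.02.

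Spp1 (chr5:104435118-104441050, plus strand) encodes osteopontin, an integrin and CD44 ligand that acts as a cytokine in wounds. Its counts were 22, 95 and 0 at P2 baseline, 0, 47 and 2 at P2 sham and 624, 2910 and 336 at P2 resected. They were 0 in all 3 P10 baseline libraries, 6, 27 and 0 at P10 sham and 2177, 3335 and 338 at P10 resected. The resected libraries stood at 36.6, 124 and 18.5 CPM at P2 and at 108, 212 and 26.3 CPM at P10, while no other library exceeded 4.42 CPM. A count of 0 over the P10 baseline group allows up to 0.0662 CPM (3 counts over the group, for counting error only).

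The groups of Spp1 did not overlap at either age, where 8.47% of genes at P2 (5.62% higher) and 8.68% at P10 (5.63% higher, 3.04% lower) were without overlap. The log2 fold change was 6.23 (SE 1.58, adjusted p = 1 by edgeR) at P2 and 7.47 (SE 1.68, adjusted p = 0.626) at P10. These sizes rest on few counts in sham libraries, and were 9.91 without P2 sham library 2 and 9.55 without P10 sham library 2, or 5.12 without P2 resected library 2 and 6.68 without P10 resected library 2. Averaged over both ages, a comparison in which 5.78% of genes and 4 members (Spp1, Thbs4, Tnc and Cilp) had an unadjusted p under 0.05 and 0 were called, the log2 fold change was 6.85 (SE 1.16, adjusted p = 0.195 by edgeR), and DESeq2 called it at an adjusted p of 0.000953. Exons of Gm42793 on the same strand share 18.8% of the exon bases of Spp1, and reads that overlap both genes are left out by the counting tool's default.

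Macrophages are a known source of osteopontin, so the macrophage markers are set beside Spp1. Their sum was 471, 210 and 75.4 CPM at P2 resected and 7.76, 98.0 and 193 CPM at P2 sham. It was 483, 1145 and 80.8 CPM at P10 resected and 105, 385 and 307 CPM at P10 sham. Of the 13 markers, 0 were called at either age. P2 resected libraries 1 and 2 and P10 resected libraries 1 and 2 had the most of both Spp1 and macrophage markers in their groups. P10 resected library 3 had a lower macrophage marker sum than every P10 sham library, and its Spp1 level of 26.3 CPM was above the highest P10 sham value of 1.75 CPM. P2 resected library 3 had a lower marker sum than P2 sham libraries 2 and 3, with Spp1 at 18.5 CPM against 2.17 and 0.131 CPM. Without the library of each resected group with the highest marker sum (P2 resected library 1 and P10 resected library 2), the log2 fold change of Spp1 was 6.50 at P2 and 6.68 at P10 (adjusted p = 1 by edgeR). In the same fit, an alternative chosen after seeing the data, Thbs4 had log2 fold changes of 3.67 and 3.00 and Tnc of 1.68 and 1.78 at P2 and P10. P2 resected library 2 and P10 resected library 1, which that fit kept, had higher marker sums than all sham libraries of their age. The part of macrophages in the Spp1 values was not tested.

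**Figure D3:**
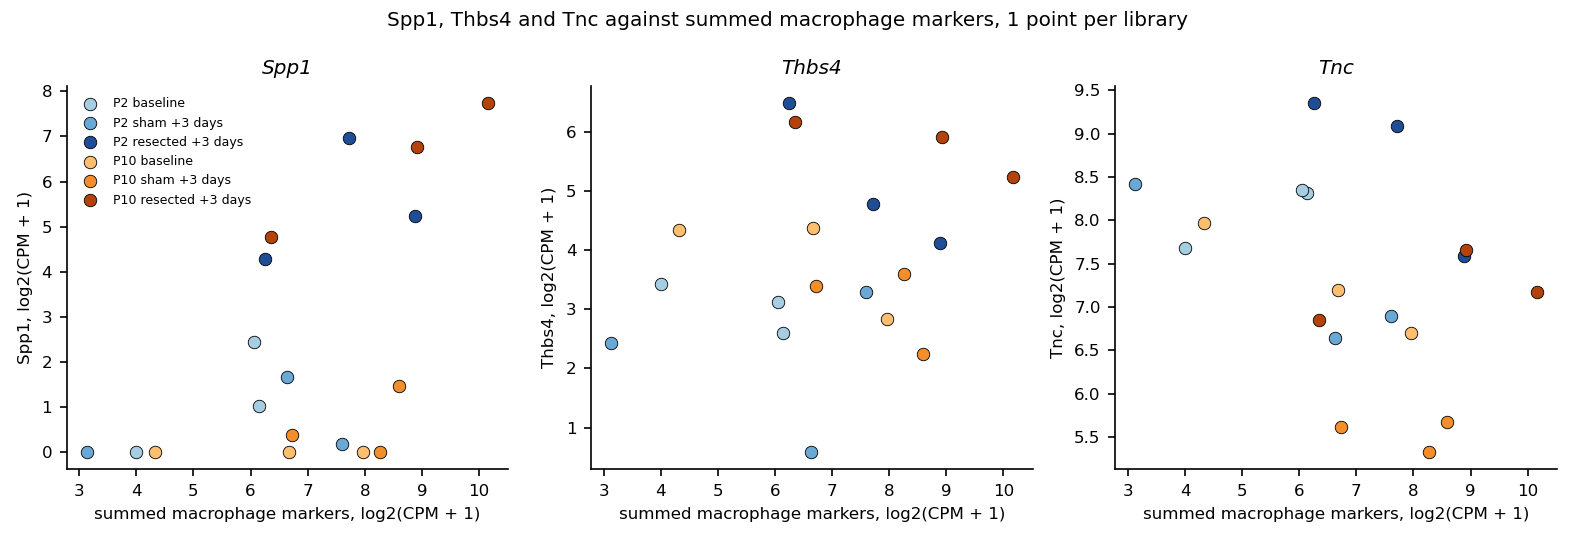
Level of Spp1, Thbs4 and Tnc against the summed level of 13 macrophage markers, both as log2(CPM + 1), with 1 point per library coloured by group. All 6 resected libraries lie above every other library in Spp1, and their macrophage marker sums range from 75.4 to 1145 CPM.

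Thbs4 (chr13:92751590-92794818, minus strand) encodes thrombospondin 4, a pentameric protein of tendon and stressed muscle matrix. Its level was 5.06, 7.68 and 9.69 CPM at P2 baseline, 4.37, 0.507 and 8.75 CPM at P2 sham and 16.4, 26.5 and 88.0 CPM at P2 resected. It was 19.1, 19.7 and 6.12 CPM at P10 baseline, 9.44, 3.75 and 11.03 CPM at P10 sham and 59.1, 36.7 and 70.7 CPM at P10 resected. All resected libraries were above all sham libraries of their age, as for 5.62% of genes at P2 and 5.63% at P10. The log2 fold change was 3.27 (SE 0.80, adjusted p = 1 by edgeR) at P2 and 2.78 (SE 0.78, adjusted p = 1) at P10. At P2 it was 2.25 without P2 resected library 3 and 4.16 without P2 sham library 3. Over both ages it was 3.03 (SE 0.56, adjusted p = 0.195 by edgeR, and 1.48e-05 by DESeq2).

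Thbs4 and Comp are also made in tendon and valves. The sum of 7 tendon and valve markers (Scx, Tnmd, Fmod, Chad, Mkx, Kera and Prg4) was 8.21, 32.6 and 76.0 CPM at P2 resected and 15.8, 27.6 and 9.01 CPM at P2 sham. At P10 it was 42.8, 33.4 and 99.6 CPM after resection and 36.4, 8.93 and 10.6 CPM after sham surgery. Between 2 and 5 of the 7 markers had no count in 17 of the 18 libraries. In both resected groups library 3 had the highest marker sum and the highest Thbs4 level (88.0 CPM at P2 and 70.7 CPM at P10). Most of that sum was Fmod at P2 (59.5 CPM) and Prg4 at P10 (80.6 CPM), so it was not the same marker at the 2 ages. P2 resected library 1 had a lower marker sum than all P2 sham libraries and a Thbs4 level of 16.4 CPM, above theirs. The part of such cells in the difference was not tested.

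Comp (chr8:70373558-70382066, plus strand), the cartilage oligomeric matrix protein, was close to the detection limit. Its counts were 14, 0 and 0 at P2 baseline, 0, 0 and 6 at P2 sham, 0, 7 and 46 at P2 resected, 111, 16 and 0 at P10 baseline, 0, 0 and 25 at P10 sham and 27, 28 and 8 at P10 resected. P10 resected was the only group with counts in all 3 libraries. No comparison called Comp by edgeR.

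Tnc was the third member with an unadjusted p under 0.05 at both ages. At P10 the resected libraries (201, 144 and 115 CPM) were all above the sham libraries (39.2 to 50.2 CPM), as for 5.63% of genes. The log2 fold change was 1.74 (SE 0.48, adjusted p = 0.993 by edgeR). At P2 the groups overlapped, since P2 sham library 1, at 343 CPM, was above P2 resected library 1, at 192 CPM. The log2 fold change there was 1.31 (SE 0.47, adjusted p = 1 by edgeR), and 2.09 without P2 sham library 1. Over both ages it was 1.52 (SE 0.34, adjusted p = 0.366 by edgeR, 0.00706 by DESeq2). The P10 resected libraries lay within the P10 baseline range of 103 to 250.5 CPM, whose upper end was P10 baseline library 1, which stood apart. P10 resected library 1 was above both other P10 baseline libraries, and the remaining resected libraries lay between them. The gap without overlap at P10 was thus to the sham group. From P10 baseline to P10 sham, Tnc had a log2 fold change of -1.86 (SE 0.48, adjusted p = 0.383 by edgeR), with all sham libraries lower. In that comparison 0.00618% of genes were called, 10.0% were without overlap, and the groups differ by 3 days of growth as well as by surgery.

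Cilp, Sparc and Postn were compared with sham surgery in the same way. Cilp had a log2 fold change of 1.34 at P2 (SE 0.72, adjusted p = 1 by edgeR; 0.64 without P2 resected library 3 and 1.89 without P2 sham library 1) and 0.80 at P10 (SE 0.71, adjusted p = 1), with overlapping groups. Sparc had one of 0.25 at P2 and 0.05 at P10 (SE 0.17 each), and Postn one of 0.15 and 0.10 (SE 0.43 each). An activated fibroblast list of 8 genes (Acta2, Tagln, Cthrc1, Fap, Col8a1, Lox, Timp1 and Ccn2) summed to 2356 to 2925 CPM at P10 resected and 1357 to 1510 CPM at P10 sham. At P2 it summed to 1567 to 3426 CPM after resection and 1224 to 1737 CPM after sham surgery. Of these 8 genes, 0 were called at either age, and their part in the values of Spp1, Thbs4 and Tnc was not tested.

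**Figure D4:**
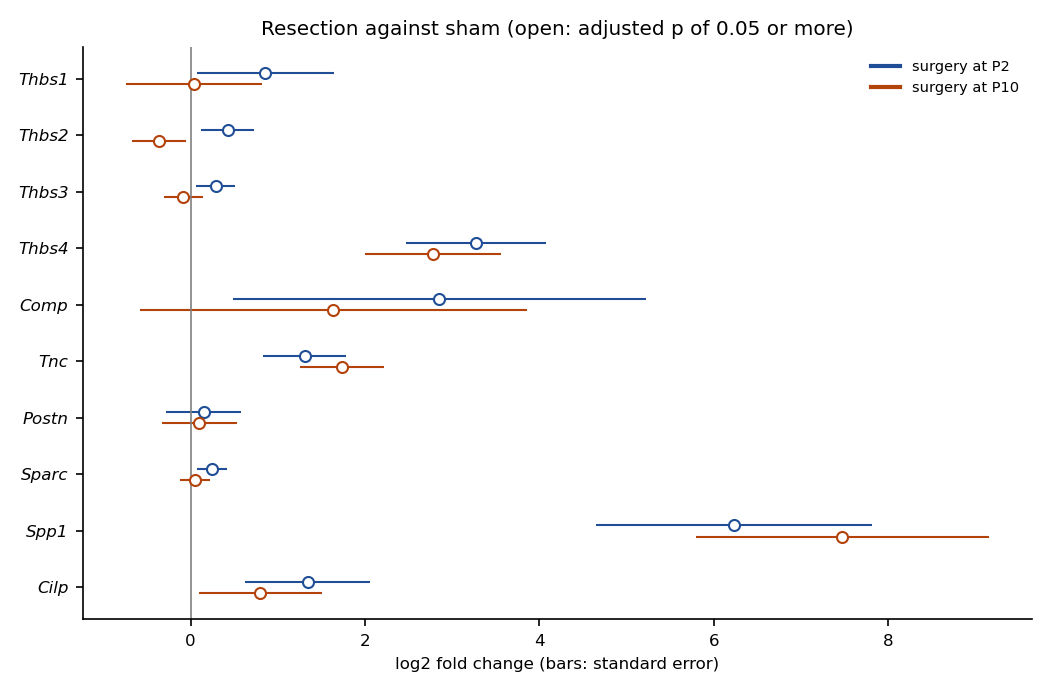
Log2 fold change of each gene in resected against sham libraries at P2 and at P10 (bars, SE; 3 libraries per group). Spp1, Thbs4 and Tnc lie farthest from 0 relative to their SEs at both ages, and all points are open because no adjusted p was under 0.05 by edgeR.

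Whether resection acted differently at the 2 ages was tested as the difference between the resection effects. By edgeR's quasi-likelihood test 0 members were called and 0 had an unadjusted p under 0.05, where 2.88% of all genes had one. Limma voom also called 0 members, and DESeq2 called 0. The difference, P10 minus P2 on the log2 scale, was 1.24 for Spp1 (SE 1.95), -0.50 for Thbs4 (SE 1.04) and 0.43 for Tnc (SE 0.66). Thbs2 had the smallest p of the members, with a difference of -0.79 (SE 0.43, adjusted p = 1.000 by edgeR), and -0.32 without P10 sham library 1. The signs for Spp1, Thbs4 and Tnc turned when single P2 libraries were left out.

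The remaining thrombospondins bind CD47 and integrins, and Thbs1 and Thbs2 are trimeric inhibitors of angiogenesis. Thbs1 (chr2:118111876-118127133, plus strand) was at 1237, 1316 and 608 CPM at P2 baseline, 1578, 259 and 416 CPM at P2 sham and 397, 803 and 2883 CPM at P2 resected. It was at 2791, 717 and 473 CPM at P10 baseline, 1211, 324 and 309 CPM at P10 sham and 708, 541 and 646 CPM at P10 resected. Thbs1 differed more between libraries of a group than between groups, with 1 library far above the other 2 in P2 sham, P2 resected, P10 baseline and P10 sham. Its window difference of -0.35 on the log2 scale (SE 0.45, adjusted p = 0.667 by edgeR) turned to 0.04 without P2 resected library 3 and to 0.03 without P2 sham library 1, and was -0.68 (adjusted p = 0.148) without the 3 libraries that stood apart. Exons of Gm29233 on the other strand share 3.43% of the exon bases of Thbs1.

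Thbs2 (chr17:14665500-14694235, minus strand) was at 810, 1050.5 and 723 CPM at P2 baseline, 1262, 729 and 921 CPM at P2 sham and 1079, 1209 and 1622 CPM at P2 resected. It was at 1774, 1243 and 1100.0 CPM at P10 baseline, 1892, 865 and 887 CPM at P10 sham and 767, 1083 and 983 CPM at P10 resected. P10 baseline libraries were all above P2 baseline libraries, as for 10.3% of genes, with a log2 fold change of 0.67 (SE 0.31, adjusted p = 0.248 by edgeR). P10 baseline and P10 sham library 1 were the highest of all 18. The window difference was 0.18 (SE 0.18, adjusted p = 0.568). Without the 3 libraries that stood apart, these differences were 0.44 (adjusted p = 0.171) and 0.02 (adjusted p = 0.967).

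Thbs3 (chr3:89215180-89226837, plus strand) was between 147 and 352 CPM in all libraries. Its means were 226 ± 12.5 CPM at P2 baseline and 319 ± 29.6 CPM at P10 baseline (SD, n = 3 each), again without overlap, as for 22.4% of genes (10.3% higher at P10). The log2 fold change was 0.50 (SE 0.22, adjusted p = 0.244 by edgeR, and 0.0240 by limma voom). From P10 baseline to P10 sham the mean went to 257 ± 33.4 CPM, a log2 fold change of -0.31 (SE 0.22, adjusted p = 0.855) with all sham libraries lower, as for 4.69% of genes. Mtx1 on the other strand shares 6.59% of the exon bases of Thbs3.

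In the other comparisons that involve sham surgery or growth, edgeR called no member, while other tools called some. From P2 baseline to P2 sham, 0 members were called by edgeR and 0 had an unadjusted p under 0.05, and limma voom and DESeq2 called 0. Between P10 baseline and P2 sham, 0 members were called where 1.32% of genes were, and 4 had an unadjusted p under 0.05 (Sparc, Cilp, Thbs3 and Thbs4, all higher at P10 baseline), as had 14.9% of genes. DESeq2 called 2 members (Sparc and Cilp) among 907 of 15378 genes, and limma voom called 4 (Thbs3, Sparc, Cilp and Postn) among 1033 of 16170. Sparc differed there by 0.62 on the log2 scale (SE 0.17, adjusted p = 0.0881 by edgeR) and Cilp by 2.58 (SE 0.75, adjusted p = 0.105), both higher without overlap, as were 6.36% of genes. From P10 baseline to P10 sham, 1 member (Tnc) and 7.40% of all genes had an unadjusted p under 0.05, and DESeq2 called Tnc among 167 genes while limma voom did not call it.

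Other genes of the pathway were taken from 3 lists. Of 16 matricellular relatives, 11 were tested, and in the P10 window 4 rose and 0 fell by edgeR, where 7.11% of all genes rose and 6.39% fell. Smoc2, a SPARC-related calcium-binding protein, was at 985 ± 192 CPM in the P2 window and 2948 ± 554 CPM in the P10 window (SD, n = 9 each), at a log2 difference of 1.59 (SE 0.10, adjusted p = 2.19e-08). Tgfbi, a periostin relative with the same fasciclin domains, went from 54.5 ± 18.4 to 152 ± 31.0 CPM (SD, n = 9 each), at a log2 difference of 1.53 (SE 0.15, adjusted p = 3.28e-06). Spock2, a testican, went from 0.280 ± 0.393 to 3.10 ± 4.67 CPM (log2 3.95, SE 1.03, adjusted p = 0.0158), with libraries at 0 in both windows. Ecm1 also rose. Tgfbi rose in the comparison in which its relative Postn fell.

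Of 20 receptors and clearance genes, all tested, 2 rose and 1 fell in the P10 window, a share near the 13.5% of all genes called there and so no result about this list. Itgb5, an integrin chain that pairs with the alpha V chain to bind periostin and osteopontin, rose from 395 ± 99.7 to 664 ± 117 CPM (SD, n = 9 each; log2 0.77, adjusted p = 0.000226 by edgeR). Cd47, the receptor for the carboxyl end of thrombospondins, rose from 306 ± 51.0 to 435 ± 132 CPM (log2 0.51, adjusted p = 0.0303). Ptprz1, a receptor phosphatase that binds tenascins, fell from 15.6 ± 8.61 to 2.77 ± 2.85 CPM (log2 -2.49, adjusted p = 0.0144). The median log2 fold change of this list was -0.04 beside -0.06 over all genes.

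Of 14 matrix and growth factor partners, all tested, 5 rose and 0 fell, where 7.11% of all genes rose, and the median log2 fold change was 0.33 beside -0.06 over all genes. Ltbp1, which tethers latent TGF-beta to the matrix, went from 37.1 ± 16.97 to 123 ± 54.1 CPM (SD, n = 9 each; log2 1.67, adjusted p = 0.000406 by edgeR). Mmp2, a gelatinase, went from 2063 ± 319 to 3771 ± 500.0 CPM (log2 0.87, adjusted p = 1.81e-05), and Tgfb3 from 145 ± 60.8 to 227 ± 27.4 CPM (log2 0.69, adjusted p = 0.00573). Bmp1 and Col3a1 were the others. In the resection comparisons 0 genes of the 3 lists were called at either age, as for the whole table.

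The pattern over the 6 groups was compared between genes as the mean absolute difference of group means of log2 CPM, each gene centred on its own mean. For each of the 4 members called in the window comparison, the nearest among all genes tested were named as a description. Foxo1 (0.02) and Chpf2 (0.03) lay nearest to Sparc, Slc38a4 (0.08) and Csrp1 (0.08) to Postn, Slc6a17 (0.14) and Gm37736 (0.15) to Tnc, and Pcsk1 (0.24) and Rasd1 (0.25) to Cilp, in log2 units over 6 group means. Among the members themselves, Thbs2 and Thbs3 were the nearest pair, at 0.10. Tnc and Postn lay 0.50 apart, and Thbs4 and Comp 0.64. Spp1 was the farthest from all others, at 2.13 from its nearest member, Thbs4. Tnc ranged over 3.16 log2 units between its lowest group, P10 sham, and its highest, P2 resected.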

How the data were processed

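The authors trimmed single-end reads of SMARTer and Nextera XT libraries with fastp 0.20.0, mapped them with STAR 2.7.0f to GRCm38.p6 with GENCODE M22, and counted reads on exons per gene symbol with featureCounts of Subread 1.6.4, without strand. The deposited counts are whole numbers and were not normalized. Reads that overlap several genes are left out by that tool's default, so overlapping exons lower a count. The table holds 0 other columns of counts.

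Alternatives left out 1 library at a time, fitted only the groups compared, dropped the filter, used RLE scaling or added the replicate number as a block. Tests used the quasi-likelihood fit of edgeR 4.0.16 (R 4.3.3) on these counts. The filterByExpr defaults (minimum count 10, minimum total 15) kept 16170 of 28906 symbols with a count. Library sizes were scaled by TMM, 1 mean per group was fitted over all 18 libraries, and Benjamini-Hochberg adjusted p-values under 0.05 over all genes tested were called. DESeq2 1.42.0, the study's tool, and limma voom 3.58.1 were alternatives. The fit was also run on simulated data, with results not given here. The 10 members were named by their family, the list genes by largest called change in the window comparison, up to 3 per direction. Members and lists were chosen with earlier results of these data known. Gene positions are from GENCODE M21 on GRCm38 and promoter sequences from RefSeq on GRCm38.p6. No other gene shared 90% of 75 or more bases with a member, apart from the overlapping genes named.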

Additional observations from a re-analysis of the deposited data

How the results depend on the processing

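The 4 calls of the window comparison (Sparc, Cilp, Tnc and Postn) were made under every alternative run. With 1 library left out in turn, the number of members called stayed at 4 in that comparison, lay between 0 and 3 at baseline, 0 and 2 between sham groups and 0 and 1 for P10 baseline against P2 sham, and was 0 in all others. Without the filter on low counts the fit gained many low genes and its prior degrees of freedom went from 5.29 to 675, and it called 6 members in the window, 3 at baseline and 3 between sham groups, losing Sparc at baseline and between sham groups. It called 4 members (526 genes in all) between resected groups, 3 (24 genes) for resection at P2, 3 (76 genes) at P10, 4 (96 genes) over both ages, 3 for P10 baseline against P2 sham and 2 from P10 baseline to P10 sham. DESeq2 called 4 between sham groups, 2 between resected groups, 1 for resection at P2, 3 over both ages, 2 for P10 baseline against P2 sham and 1 from P10 baseline to P10 sham. Limma voom called 5 at baseline, 4 between resected groups, 1 for resection over both ages and 4 for P10 baseline against P2 sham. Fits of only the groups compared called 1 at baseline, 0 between sham groups and 1 between resected groups. Without the 3 libraries that stood apart, chosen after seeing the data, 2 members were called for P10 baseline against P2 sham. With the replicate number as a block, 1 member was called for resection at P2, at P10 and over both ages (Spp1 in each), 1 for P10 baseline against P2 sham (Sparc), 5 in the window and 3 at baseline (Spp1 added in both) and 3 between sham groups (Postn added). These numbers are those of the sample descriptions, while the titles carry others that were not used as a block. They share no stated origin and were not taken to pair libraries, since 15 of 45 same-number pairs had correlated deviations over 0.1 (12 of 90 pairs with different numbers). As a hint from the data only, 10 of 18 libraries correlated best with a library of their own number, with no chance level set beside this. The 3 libraries that stood apart all carry number 1, so what sets them apart may enter these correlations. For 42 differences of single members, a subset that the text turns on, 690 pairs with an alternative were followed, of which 609 kept side and direction, 24 lost and 50 gained a call, and 7 turned. The turned ones were never called. They were Thbs1 in the window comparison (0.039 without P2 resected library 3 and 0.030 without P2 sham library 1, within a range of -0.74 to 0.039) and the difference between ages in the resection effect. With 1 library left out, that difference ran from -2.43 to 3.32 for Spp1, from -1.38 to 0.53 for Thbs4 (0.056 without P2 sham library 2) and from -0.35 to 0.76 for Tnc, which was at -0.015 with limma voom. The cause was not tested. Comp, and Spp1 outside resected hearts, had few counts.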
